A study of Mus musculus with 5 samples.

Results

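The genes described are the 10 that encode the enzymes which hydroxylate and crosslink collagen, out of 28001 features in the gene table. They were taken by name: the lysyl oxidases Lox, Loxl1, Loxl2 and Loxl3, the lysyl hydroxylases Plod1, Plod2 and Plod3, and the prolyl 4-hydroxylase subunits P4ha1, P4ha2 and P4hb. All 10 were found and all 10 had UMIs (unique molecular identifiers, 1 for each captured transcript) in every library. The cells came from hindlimb muscle of C57BL/6J mice of the genotype Hic1CreERT2/CreERT2;Rosa26LSLtdTomato/+. Sorting for tdTomato selected mesenchymal progenitors and their descendants, that is, cells in which Hic1 had driven the recombinase. There were 5 groups of 1 library each: muscle 1 day, 2 days, 4 days and 14 days after injury by notexin, a snake venom toxin that destroys muscle fibres, and quiescent muscle. All 5 groups share the Cre knock-in on both alleles of Hic1 and the tamoxifen course, 2.5 mg in 100 uL of sunflower oil daily for 5 days from 8 weeks of age, with 10 days of washout. The number of mice behind each library is not given in the sources used here.

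Collagen chains are hydroxylated in the endoplasmic reticulum before they fold. Prolyl 4-hydroxylase, built of catalytic alpha subunits (P4ha1, P4ha2) and the protein disulfide isomerase P4hb, makes the hydroxyproline that holds the triple helix together, and lysyl hydroxylases (Plod1 to Plod3) modify lysines that later take part in crosslinks. Lysyl oxidases are copper enzymes that act outside the cell, oxidising lysine and hydroxylysine in collagen and elastin so that neighbouring molecules become covalently linked.

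The sequence before the start of a gene is shown for the 3 prolyl 4-hydroxylase subunits, because its alternative alpha subunits differed from the other cells in opposite directions in tendon cells. Promoter entries (250 bases before the start and 50 after it, RefSeq, GRCm38.p6) were found for 5 of the 10 genes: Plod1, Plod3, P4ha1, P4ha2 and P4hb. Each is written 5′ to 3′ on the strand of the gene, and capitals mark the hypoxia response element core, ACGTG, on either strand (CACGT when it lies on the other strand). The promoter window of P4ha1 is chr10:59323046-59323345 on the plus strand, that of P4ha2 chr11:54100674-54100973 on the plus strand and that of P4hb chr11:120573204-120573503 on the minus strand. The P4ha2 window lies inside the gene as GENCODE M21 places it (chr11:54100095-54131665), so it is before the start only by RefSeq.
P4ha1: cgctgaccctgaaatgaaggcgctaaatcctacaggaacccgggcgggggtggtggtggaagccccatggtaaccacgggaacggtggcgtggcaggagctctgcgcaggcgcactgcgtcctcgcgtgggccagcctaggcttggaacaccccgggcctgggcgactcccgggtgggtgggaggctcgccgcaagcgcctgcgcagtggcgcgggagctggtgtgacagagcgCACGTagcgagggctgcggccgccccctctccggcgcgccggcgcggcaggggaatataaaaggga
P4ha2: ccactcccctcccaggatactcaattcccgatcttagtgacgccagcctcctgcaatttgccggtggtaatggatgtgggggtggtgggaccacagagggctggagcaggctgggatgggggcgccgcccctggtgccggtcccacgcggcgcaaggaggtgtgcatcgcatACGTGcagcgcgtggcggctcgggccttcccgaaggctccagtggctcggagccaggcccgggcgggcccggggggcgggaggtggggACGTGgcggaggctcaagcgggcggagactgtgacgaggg
P4hb: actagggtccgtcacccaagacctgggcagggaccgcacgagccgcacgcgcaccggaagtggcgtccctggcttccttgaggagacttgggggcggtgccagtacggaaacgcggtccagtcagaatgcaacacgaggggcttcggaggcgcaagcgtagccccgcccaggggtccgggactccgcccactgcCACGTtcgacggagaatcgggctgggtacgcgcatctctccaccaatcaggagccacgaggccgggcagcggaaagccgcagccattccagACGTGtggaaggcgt
P4ha1 held 1 match, 16 bases before the start on the opposite strand. P4ha2 held 2, 78 bases before the start and 10 bases after it, and P4hb held 2, 56 bases before and 35 bases after. Plod3 held 1, 54 bases before its start, and Plod1 held none. Of the other genes, 6 lie, in GRCm38 (GENCODE M21), at chr9:58287738-58313186 (Loxl1), chr14:69609068-69695834 (Loxl2), chr6:83034173-83052562 (Loxl3), chr4:147909753-147936767 (Plod1), chr9:92542223-92608428 (Plod2) and chr5:136987019-136996648 (Plod3). A match of the motif letters is common, since 19.6% of the 32851 mouse promoters of this length held at least 1, and it is a description of the sequence only.

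The 17085 cells kept were split by marker UMIs into tenocytes (tendon cells, at least 5 UMIs of Tnmd, Fmod, Kera and Chad together), mural cells (pericytes and vascular smooth muscle cells, at least 5 UMIs of Rgs5, Kcnj8, Abcc9 and Higd1b together) and all other cells. Of the progenitor genes, Pdgfra was found in 61.1% to 82.1% of other cells and Dcn in at least 99.4%, but Dcn was also in 100% of tenocytes. The other cells are thus a mixed remainder, and whether its make-up changed between libraries was not tested. In the order quiescent, days 1, 2, 4 and 14, there were 126, 183, 99, 182 and 804 tenocytes, 112, 97, 42, 114 and 243 mural cells, and 1900, 4536, 2407, 3810 and 2424 other cells. Levels are UMIs per 1000000 UMIs of the class (CPM), and values in parentheses are 95% intervals, which cover counting error only. With 1 library per group there is no replicate check and no p-value. A gene is said to have risen or fallen, or to be higher or lower, only when the levels differed at least 2-fold with at least 20 CPM in the higher and at least 20 UMIs in both together. Median depth differed between libraries, from 3883 UMIs in quiescent to 11165 UMIs in day 2 other cells. Counts were taken at the 3′ end and are not scaled to length. Levels are compared mainly within a gene. Where UMIs of several genes are summed or given as shares, differences in capture between the genes were not tested. Of the markers outside the class rule, 6 tenocyte genes summed to 3180 to 10900 CPM in tenocytes, against 68.1 to 287 CPM in other cells, and Thbs4 made up most of that sum in tenocytes of each library (2607 to 9153 CPM). The tendon transcription factors Scx and Mkx were lower on days 1, 2 and 4 than in the quiescent library: in the order quiescent, days 1, 2, 4 and 14, Scx was at 121, 6.92, 10.9, 17.9 and 58.7 CPM and Mkx at 144, 50.5, 55.9, 67.6 and 164 CPM in tenocytes, against at most 0.562 and 1.70 CPM in other cells. For mural cells, 7 genes, with Acta2 and Ndufa4l2 the most abundant, summed to 4833 to 10783 CPM, against 102 to 617 CPM in other cells. Of 5 listed myogenic genes, Pax7, Myod1 and Myf5 were at 0 in tenocytes and mural cells of all 5 libraries. Chodl alone accounted for nearly all of the list's UMIs in tenocytes (260.1 to 1823 CPM, against 1.42 to 12.5 CPM in other cells) and Des in mural cells (117 to 533 CPM, against 17.7 to 40.1 CPM in other cells). The progenitor genes set the day 2 mural class apart: 19 of its 42 cells (45.2%) held Pdgfra UMIs, against 1.79% to 10.3% of mural cells in the other libraries. Haemoglobin genes were at or near 0 in every class, and the leukocyte gene Ptprc was found in at most 1.01% of the cells of any class.

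Lox had the largest ratio to the quiescent library among the 10 genes in the other cells, on each of days 1, 2 and 4. It encodes the founding lysyl oxidase, which crosslinks fibrillar collagen and elastin. Its level was 23.3 CPM (19.9 to 27.0) in the quiescent library, 78.1 CPM on day 1, 158 CPM on day 2, 204 CPM (199 to 209) on day 4 and 24.9 CPM on day 14. Both ends of the series were low, and the 3 libraries between them stood above them. Against the quiescent library Lox rose 3.36-fold (2.88 to 3.94) on day 1, 6.81-fold (5.84 to 7.98) on day 2 and 8.76-fold (7.52 to 10.3) on day 4. On day 14 it was 8.18-fold (7.30 to 9.20) lower than on day 4. Day 4 against day 2 had a ratio of 1.29, which turned to 0.94 when cells were thinned to 2500 UMIs and to 0.98 with the mean of cell CPM.

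Loxl3, a relative of Lox best known for its part in palate and spine development, followed a similar course. It was at 39.0 CPM in the quiescent library, 79.5 CPM on day 1, 183 CPM on day 2, 219 CPM on day 4 and 48.4 CPM on day 14. Loxl3 rose 2.04-fold (1.81 to 2.31) on day 1, 4.69-fold (4.16 to 5.30) on day 2 and 5.61-fold (4.99 to 6.34) on day 4, and was 4.52-fold (4.16 to 4.92) lower on day 14 than on day 4. The day 1 rise was 1.84-fold in thinned cells. After 5 CPM was added to each level, 55 of 6498 features (0.846%) exceeded quiescent, day 1 and day 14 more than 2-fold in the libraries of days 2 and 4 alike, and Loxl3 was the 1 enzyme gene among them. For those features the time point and the pair of libraries cannot be told apart. Loxl3 shares 1297 bases with Htra2 on the opposite strand, and the strand setting of the counting is not given in the sources used here.

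Loxl2, which acts on collagen IV of basement membranes, went the other way at first. Its level was 241 CPM in the quiescent library, 73.7 CPM on day 1, 97.2 CPM on day 2, 195 CPM on day 4 and 171 CPM on day 14. It fell 3.27-fold (3.08 to 3.47) on day 1 and was 2.48-fold (2.34 to 2.63) lower on day 2, and its lowest library was the one in which Lox had begun to rise. The level on day 4 was 2.01-fold (1.92 to 2.10) that on day 2, a ratio that fell below 2 under 7 of 12 other settings. Loxl2 lies over the antisense gene Gm27177 for 74219 bases. Loxl1, whose product is needed for elastic fibre renewal, was at 329 CPM in the quiescent library, 191 CPM on day 1, 266 CPM on day 2, 304 CPM on day 4 and 291 CPM on day 14. No ratio of Loxl1 to the quiescent library reached 2-fold in the other cells, and its lowest level was on day 1, as for Loxl2.

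**Figure D1:**
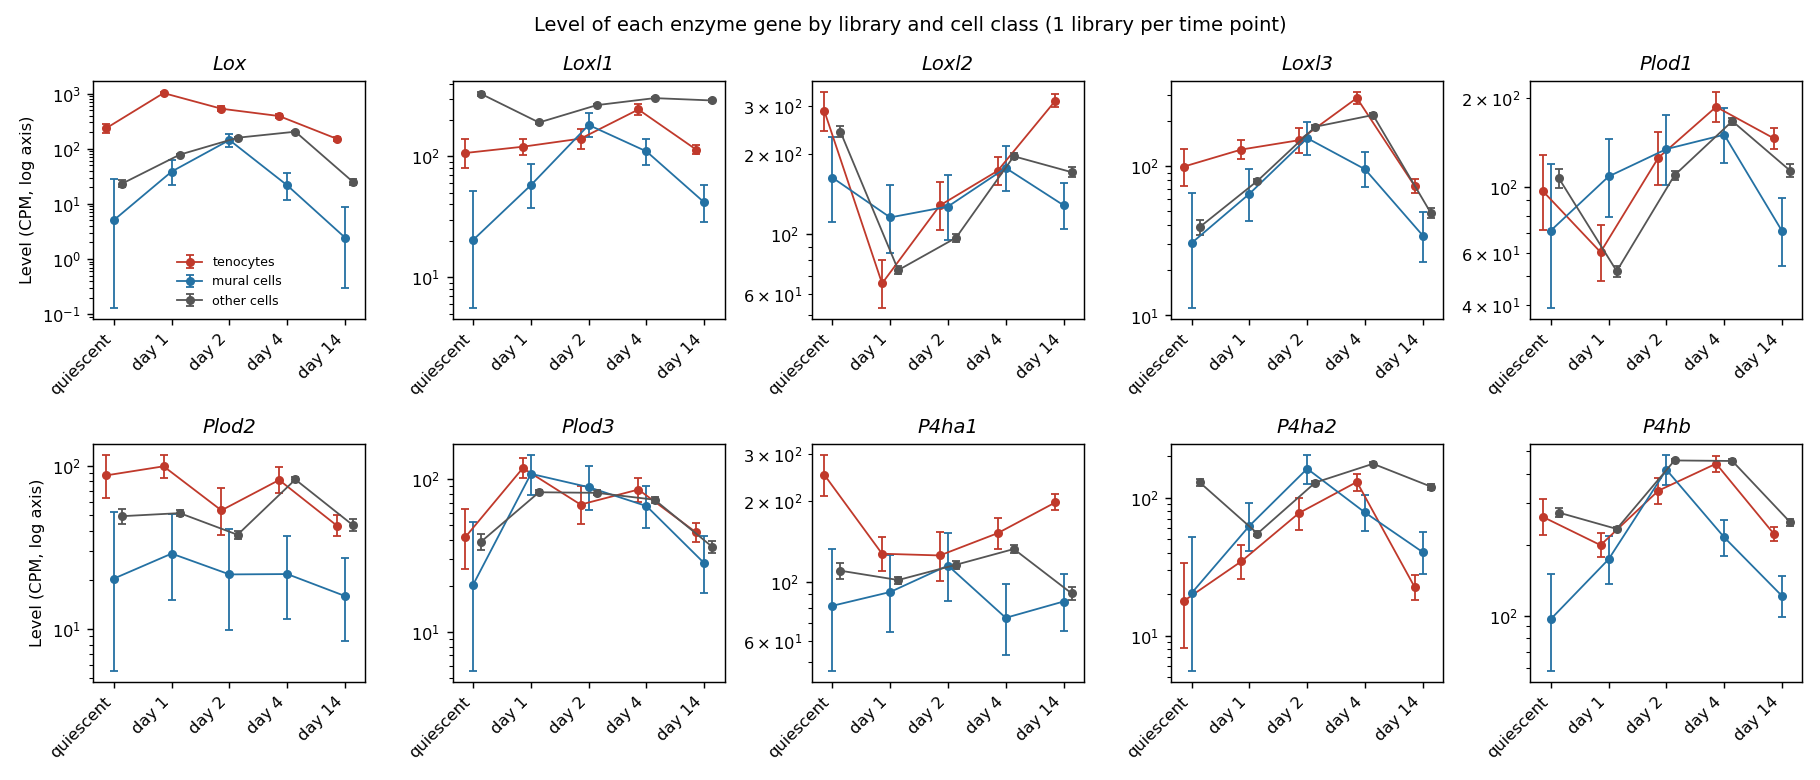
Level of each of the 10 enzyme genes (CPM, log axis) in the quiescent library and at days 1, 2, 4 and 14, for tenocytes, mural cells and other cells, with 95% counting intervals. Each point is 1 library; Lox in tenocytes stands highest on day 1 (1022 CPM), while Lox in other cells is highest on day 4 (204 CPM).

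Among the lysyl hydroxylases, Plod3 rose early and Plod1 fell. Plod3, which also transfers sugars onto hydroxylysine, was at 39.0 CPM in the quiescent library, 82.1 CPM on day 1, 81.4 CPM on day 2, 73.4 CPM on day 4 and 36.0 CPM on day 14. It rose 2.11-fold (1.87 to 2.38) on day 1 and 2.09-fold (1.85 to 2.37) on day 2, but 1.91-fold and 1.72-fold in thinned cells, and was 2.04-fold (1.84 to 2.26) lower on day 14 than on day 4, a call lost under 6 of 12 other settings. Plod3 shares 1003 bases with Znhit1 on the opposite strand. Plod1, the main hydroxylase of lysines within the helix, was at 107 CPM in the quiescent library, 51.9 CPM on day 1, 109 CPM on day 2, 167 CPM on day 4 and 113 CPM on day 14. It fell 2.06-fold (1.90 to 2.23) on day 1, a call that was lost with TMM or DESeq2 scaling. Its level on day 2 was 2.11-fold (2.00 to 2.23) that on day 1, and less than 2-fold with TMM or DESeq2 scaling or with the mean of cell CPM. Plod2, which hydroxylates the telopeptide lysines used in stable crosslinks and is tied to fibrosis, was at 49.0 CPM in the quiescent library, 51.1 CPM on day 1, 37.7 CPM on day 2, 82.1 CPM on day 4 and 43.0 CPM on day 14. Plod2 was 2.18-fold (2.03 to 2.34) higher on day 4 than on day 2, and none of its levels after injury differed 2-fold from the quiescent one.

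Of the prolyl 4-hydroxylase subunits, P4ha2 changed and P4ha1 stayed within a narrow range. P4ha2, an alternative alpha subunit, was at 129.7 CPM in the quiescent library, 55.1 CPM on day 1, 129 CPM on day 2, 177 CPM on day 4 and 121 CPM on day 14. It fell 2.35-fold (2.18 to 2.54) on day 1, and by 1.71-fold with TMM scaling. Its level on day 2 was 2.35-fold (2.23 to 2.47) that on day 1, so that it was back near its quiescent level, and the ratio was less than 2-fold with TMM scaling or in thinned cells. P4ha1, the alpha subunit of most tissues, was at 110.0 CPM in the quiescent library, 102 CPM on day 1, 116 CPM on day 2, 133 CPM on day 4 and 90.5 CPM on day 14, with no 2-fold difference. P4hb, the subunit shared by all forms of the enzyme and a disulfide isomerase of secreted proteins in general, was at 274 CPM in the quiescent library, 233 CPM on day 1, 457 CPM on day 2, 454 CPM on day 4 and 249.6 CPM on day 14. The day 2 and day 4 levels of P4hb stood above the other 3, at 1.67-fold and 1.66-fold the quiescent one. On day 1 the ratios of P4ha1 (0.92) and P4hb (0.85) lay below 1 and turned to 1.27 and 1.17 with TMM scaling.

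The counts of enzyme genes are set here beside those of all features. On day 1, 3 of 10 rose (Lox, Loxl3, Plod3) and 3 fell (Loxl2, Plod1, P4ha2), while 39.8% of 6045 features differed at least 2-fold, 15.5% higher and 24.3% lower. The median log2 ratio was -0.17 over the 10 and -0.15 over all features. On day 2, 3 rose (Lox, Loxl3, Plod3) and 1 fell (Loxl2), against 28.7% of 6074 features (11.3% higher, 17.4% lower), with medians of 0.05 and -0.03. On day 4, 2 rose (Lox, Loxl3) and none fell, against 16.3% of 5945 features (6.34% higher, 9.92% lower), with medians of 0.68 for the 10 and 0.02 for all. On day 14 none differed 2-fold from the quiescent library, where 1.68% of 5757 features did (1.04% higher, 0.643% lower). Scaling mattered most on day 1, where TMM factors shifted every log2 ratio to the quiescent library by 0.46 and DESeq2 size factors by 0.22. Between consecutive libraries, 4 genes were higher on day 2 than on day 1 (Lox, Loxl3, Plod1, P4ha2), where 17.7% of features differed (9.68% higher, 8% lower), and the Lox call there held under 5 of 12 other settings. None of these 4 calls held with TMM factors, which shifted the log2 ratios by -0.24, 1 held with the mean of cell CPM (P4ha2) and 1 in thinned cells (Plod1). On day 4 against day 2, 2 genes were higher (Loxl2, Plod2), where 10.7% differed (6.93% higher, 3.77% lower). On day 14 against day 4, 3 genes were lower (Lox, Loxl3, Plod3), where 13.4% differed (8.01% higher, 5.36% lower).

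The timing of the enzymes was then read beside Col1a1 and Col3a1, the main fibrillar collagen genes of these cells. In the other cells Col1a1 was at 2289 CPM in the quiescent library, 487 CPM on day 1, 1227 CPM on day 2, 7366 CPM on day 4 and 3277 CPM on day 14. Col3a1 was at 5767, 1204, 2650, 9279 and 7223 CPM in the same order. Col1a1 fell 4.70-fold (4.601 to 4.79) and Col3a1 4.79-fold (4.73 to 4.85) on day 1, and both were highest on day 4. Of the 10 enzyme genes, 6 were also highest on day 4: Lox, Loxl3, Plod1, Plod2, P4ha1 and P4ha2. How many of all features were highest on day 4 was not counted, so this count is a description only. For Lox, however, day 4 against day 2 had a ratio of 0.98 with the mean of cell CPM and 0.94 in thinned cells. For P4ha1, day 4 against quiescent had a ratio of 0.99 in thinned cells. Under those settings day 4 was not their highest library. Plod3 was highest on day 1, P4hb on day 2 with day 4 at 99.5% of that level, and Loxl1 and Loxl2 in the quiescent library. On day 2, when Col1a1 had 16.7% of its highest level and Col3a1 28.6%, Lox had 77.7%, Loxl3 83.5%, Plod3 99.1% and P4hb 100% of theirs. The other 6 ranged from 40.3% (Loxl2) to 87.4% (P4ha1), so that all 10 enzyme genes lay above both collagen genes by this measure. So did most features: of 6498 with at least 20 CPM in some library of the other cells, 96.97% lay above Col1a1 and 91.9% above Col3a1, and the median was 71.5%, against 79.3% for the enzymes. Cell cycle genes also moved with time: 8 G2/M genes summed to 26.7 CPM in quiescent other cells, 17.9 CPM on day 1, 769.7 CPM on day 2, 277 CPM on day 4 and 13.6 CPM on day 14, and their part in these levels was not tested.

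**Figure D2:**
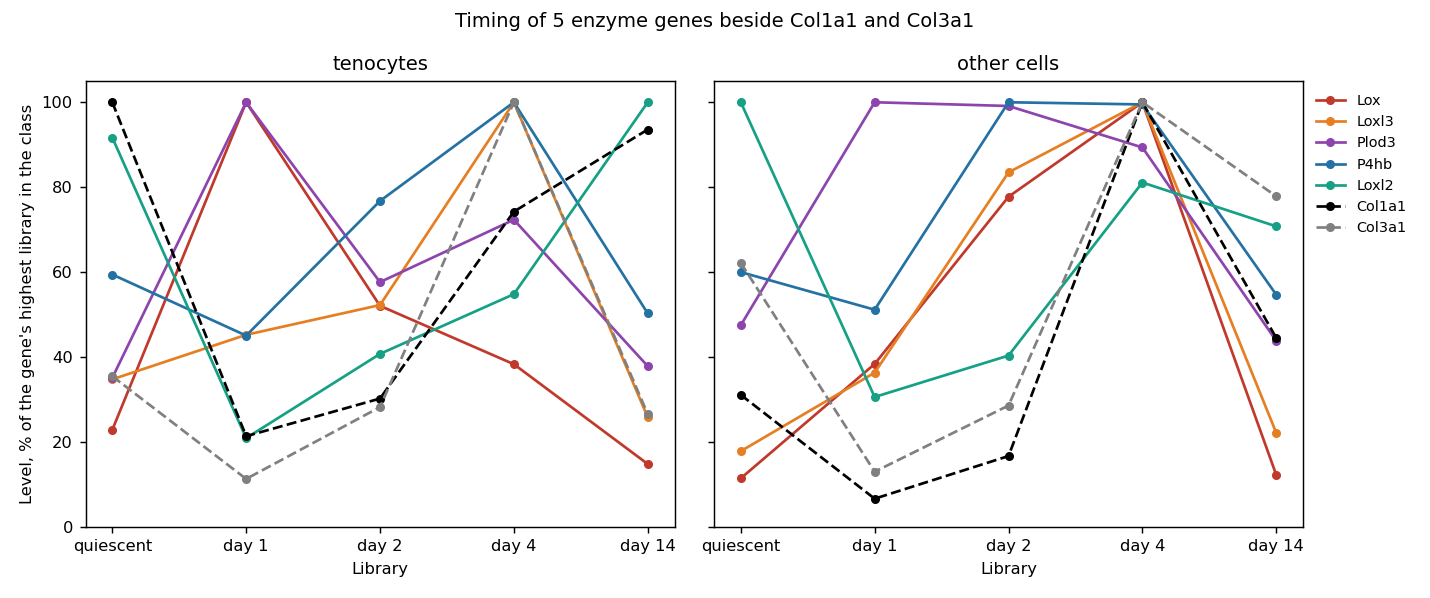
Level of 5 enzyme genes and of Col1a1 and Col3a1 as a percentage of the highest library of each gene, in tenocytes and in other cells, at quiescence and days 1, 2, 4 and 14. In other cells on day 2 Lox stands at 77.7% of its highest level and Col1a1 at 16.7%; in tenocytes Lox is highest on day 1.

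The number of enzyme transcripts per collagen transcript differed widely between libraries. Over all 10 genes, the other cells held 166 enzyme UMIs per 1000 UMIs of Col1a1 and Col3a1 in the quiescent library (163 to 170), 590 on day 1 (584 to 595), 422 on day 2 (418 to 425), 121 on day 4 (120 to 122) and 113 on day 14 (111 to 115). The ratio was highest when collagen was lowest, and at days 4 and 14 it lay below the quiescent one. From quiescent to day 1 the summed enzyme level went from 1341 to 997 CPM in other cells, and that of both collagen genes from 8056 to 1692 CPM. By this scaling the day 1 ratio there came with a smaller collagen share of the UMIs and no larger enzyme share. TMM factors shifted every log2 ratio of day 1 to quiescent by 0.46 in other cells. The enzyme sum was not recomputed with them, so its fall may depend on the scaling. In tenocytes the enzyme sum went from 1484 to 1975 CPM and the collagen sum from 14822 to 3408 CPM. Lox was above its quiescent value on day 4, with 12.2 UMIs per 1000, against 2.89 in the quiescent library, and so was Loxl3, with 13.2 on day 4, against 4.84 in the quiescent library. Plod3, at 4.41, and P4hb, at 27.3, were below their quiescent values of 4.84 and 34.0. In tenocytes the value was 100.1 in the quiescent library (93.1 to 108), 579 on day 1 (558 to 601), 309 on day 2 (292 to 326), 137 on day 4 (132 to 142) and 99.0 on day 14 (96.4 to 102). Day 1 was again highest, but day 4 lay above the quiescent value in tenocytes and below it in other cells.

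**Figure D3:**
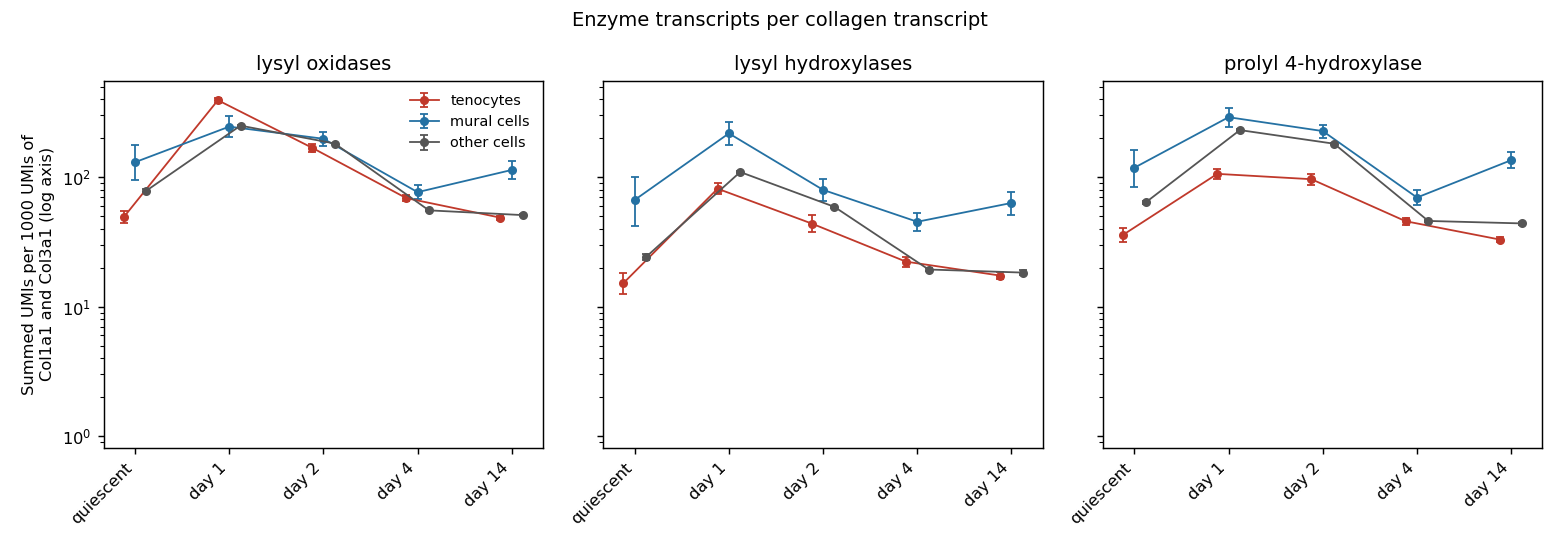
Summed UMIs of the 4 lysyl oxidase, 3 lysyl hydroxylase and 3 prolyl 4-hydroxylase genes per 1000 UMIs of Col1a1 and Col3a1 (log axis, 95% counting intervals), by library and class. All 3 enzyme groups are highest per collagen transcript on day 1, at 250, 109 and 231 in other cells, where both collagen genes together were at 1692 CPM, against 8056 CPM in quiescent.

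Tenocytes differed from the other cells most in Lox. Lox in tenocytes was at 233 CPM (193 to 279) in the quiescent library, 1022 CPM (970 to 1075) on day 1, 532 CPM on day 2, 391 CPM on day 4 and 151 CPM (140 to 163) on day 14. The highest level was thus on day 1, with a decline in each later library. The other cells had their highest level on day 4 by summed UMIs, and on day 2 in thinned cells or with the mean of cell CPM. Within a library Lox was higher in tenocytes than in other cells by 10.0-fold (7.86 to 12.8) in the quiescent library, 13.1-fold (12.3 to 13.9) on day 1, 3.36-fold (3.02 to 3.72) on day 2 and 6.07-fold (5.29 to 6.97) on day 14. On day 4 the ratio was 1.92 (1.76 to 2.09), just short of 2-fold. All 12 other settings kept the calls at quiescence and days 1, 2 and 14, though the minimum of 5 CPM among them cannot remove a call. Tenocytes held 40.8% of the Lox UMIs of the quiescent library but 6.32% of its UMIs of all genes. On day 1 they held 30.6% of Lox UMIs and 3.25% of all, on day 2 7.14% and 2.24%, on day 4 8.77% and 4.69%, and on day 14 67.2% and 24.1%. Lox made up 76.4% (74.5 to 78.3) of the UMIs of the 4 lysyl oxidase genes in day 1 tenocytes, against 18.5% in day 1 other cells.

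The difference showed in the number of cells as well as in the summed level. Lox UMIs were found in 40.5%, 91.3%, 82.8%, 70.9% and 40.8% of tenocytes at quiescence and days 1, 2, 4 and 14, and in 6.47%, 36.4%, 63.7%, 46.9% and 9.57% of other cells. After each cell was thinned to 2500 UMIs the shares were 34.0%, 80.3%, 56.6%, 52.8% and 27.7% of tenocytes and 4.64%, 16.3%, 27.8%, 24.5% and 5.58% of other cells. Lox was thus in a larger share of tenocytes than of other cells in each library, thinned or not. No class of these libraries is known to lack the enzyme genes, so what free RNA adds to such shares was not tested.

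The alpha subunits of prolyl 4-hydroxylase split between tenocytes and other cells at rest. P4ha1 in tenocytes was at 251 CPM in the quiescent library, 127 CPM on day 1, 125 CPM on day 2, 152 CPM on day 4 and 198 CPM on day 14. P4ha2 in tenocytes was at 17.8 CPM in the quiescent library (9 UMIs), 34.6 CPM on day 1, 77.7 CPM on day 2, 131 CPM on day 4 and 22.5 CPM on day 14. At both ends of the series, quiescence and day 14, P4ha1 had its highest levels and P4ha2 its lowest. In the quiescent library P4ha1 was 2.28-fold (1.88 to 2.75) higher and P4ha2 7.29-fold (3.82 to 15.996) lower in tenocytes than in other cells, and on day 14 they were 2.19-fold (2.00 to 2.39) higher and 5.37-fold (4.37 to 6.68) lower. P4ha1 accounted for 93.4% (87.8 to 96.9), 78.6%, 61.7%, 53.8% (48.9 to 58.6) and 89.8% (87.7 to 91.7) of the UMIs of the pair in tenocytes, in time order. The day 4 share depended on the class rule and was larger under stricter ones. With a class limit of 10 UMIs, day 4 tenocytes held 126 UMIs of P4ha1 and 69 of P4ha2. Without Fmod in the rule they held 128 and 85. In other cells its share was 45.9%, 64.8%, 47.2%, 42.8% and 42.8%.

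**Figure D4:**
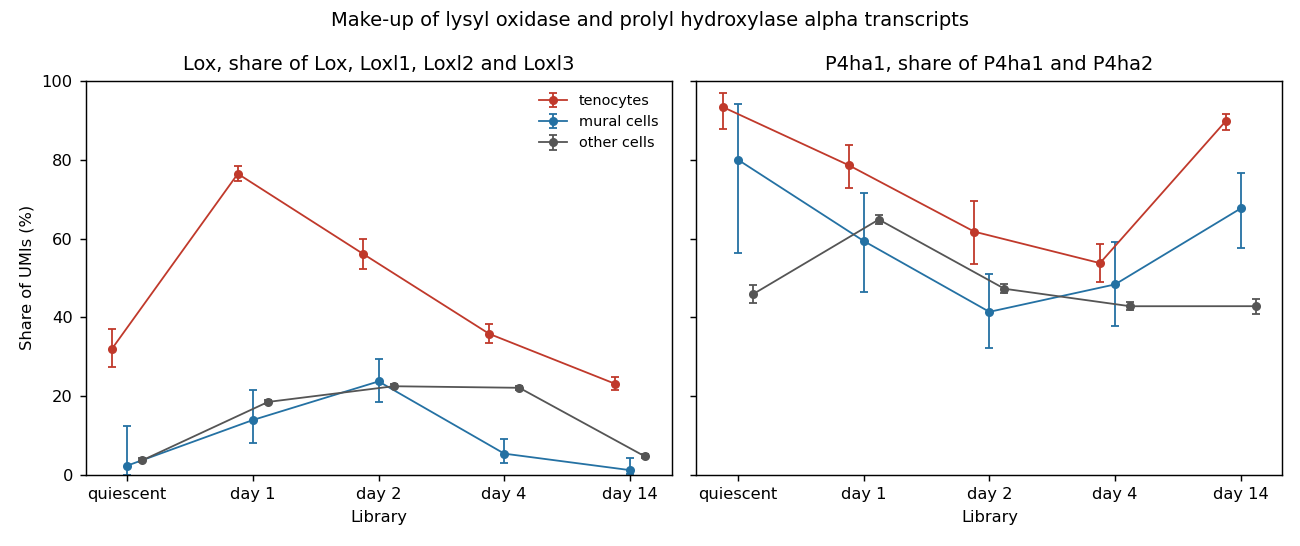
Share of Lox in the UMIs of the 4 lysyl oxidase genes (left) and share of P4ha1 in the UMIs of P4ha1 and P4ha2 (right), in %, by library and class, with 95% counting intervals. P4ha1 makes up 93.4% of the pair in quiescent tenocytes and 53.8% on day 4, while its share in other cells is highest on day 1 (64.8%).

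In the quiescent library, 5 of 10 genes differed at least 2-fold between tenocytes and other cells (3 higher, 2 lower), where 21.2% of 6097 features did (8.43% higher, 12.8% lower). On day 14, 4 of 10 did (Lox and P4ha1 higher, Loxl1 and P4ha2 lower), where 17.8% of 6100 features did (7.9% higher, 9.89% lower). Loxl1 was 3.08-fold (2.36 to 4.12) lower in quiescent and 2.55-fold (2.32 to 2.81) lower in day 14 tenocytes than in other cells. Loxl3 was 2.53-fold (1.84 to 3.43) higher in quiescent tenocytes. Lox was the 1 gene of the 10 that differed on day 1, when 11.5% of 5161 features did (5.97% higher, 5.52% lower), and on day 2, when 13.5% of 5543 did (6.87% higher, 6.62% lower). On day 4 none of the 10 did, against 6.66% of 5514 features (2.87% higher, 3.79% lower). Repeated calls were not counted over all features, but of the 10 genes Lox alone differed in the same direction in at least 3 libraries. P4ha2 joined it, lower in tenocytes, with a class limit of 10 UMIs, without Fmod, with the mean of cell CPM or in thinned cells, and Loxl1, also lower, in thinned cells or with TMM scaling.

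Over time within tenocytes, Lox rose 4.38-fold (3.63 to 5.33) on day 1 and 2.28-fold (1.85 to 2.83) on day 2 over the quiescent library, and Plod3 rose 2.85-fold (1.81 to 4.72) on day 1, to 118 CPM, against 41.5 CPM in quiescent tenocytes. Loxl2 fell 4.39-fold (3.37 to 5.75) on day 1, to 65.7 CPM, against 289 CPM in quiescent tenocytes. These 3 day 1 calls stand against 34% of 5707 features that differed at least 2-fold (13.4% higher, 20.6% lower). On day 2 P4ha2 rose 4.37-fold (2.15 to 10.0), Loxl2 was 2.25-fold (1.73 to 2.95) lower and P4ha1 2.00-fold (1.52 to 2.65) lower (25.3% of 5699 features differed, 10.9% higher and 14.3% lower), and the P4ha1 call was lost under 6 of 12 other settings, the P4ha2 and Loxl2 calls in thinned cells and the Lox call with a class limit of 3 UMIs. On day 4 P4ha2 rose 7.35-fold (3.79 to 16.3), Loxl3 2.88-fold (2.14 to 3.94), Loxl1 2.29-fold (1.72 to 3.11) and Plod3 2.06-fold (1.29 to 3.44), where 24.7% of 5884 features differed (11.5% higher, 13.2% lower). When Fmod was left out of the tenocyte rule, 129 in place of 182 cells remained on day 4 and the Loxl1, Loxl3 and Plod3 levels there were 186, 155 and 62.8 CPM, less than 2-fold above quiescent tenocytes, while P4ha2 stayed called at 97.0 CPM. A class limit of 10 UMIs lost the same 3 calls. Among the tenocyte genes outside the rule, Thbs4 (2607 CPM) and Comp (271 CPM) were lowest on day 4, while Scx, Mkx and Col11a1 were lowest on day 1 and Cilp2 on day 2. On day 14 Plod2 was 2.03-fold (1.43 to 2.83) lower, the 1 difference of the 10 (8.89% of 5891 features, 5.57% higher and 3.33% lower), and this call was lost under 5 of 12 other settings.

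Mural cells held less Lox and Loxl1 than other cells in 4 of 5 libraries, and less Plod2, P4ha2 and P4hb in 3. For Lox the quiescent call among the 4 rests on 1 UMI, and its interval includes no difference. How many of all features were lower in as many libraries was not counted. Lox in mural cells rested on 1 UMI in the quiescent library (5.08 CPM), 16 UMIs on day 1 (38.6 CPM), 60 UMIs on day 2 (144 CPM), 13 UMIs on day 4 (21.7 CPM) and 2 UMIs on day 14 (2.45 CPM). Loxl1 was at 20.3, 57.8, 182, 110.0 and 41.6 CPM in time order. The day 2 library stood apart in both genes. Lox was lower in mural than in other cells in 4 of 5 libraries, by 4.57-fold (0.81 to 182) in the quiescent one, 2.03-fold (1.25 to 3.55) on day 1, 9.40-fold (5.49 to 17.7) on day 4 and 10.2-fold (2.79 to 84.4) on day 14, and by 1.10-fold on day 2. Loxl1 was lower in the same 4, by 16.2-fold (6.31 to 59.5), 3.30-fold (2.22 to 5.16), 2.76-fold (2.17 to 3.58) and 6.99-fold (4.99 to 10.1), and by 1.46-fold on day 2. Plod2, P4ha2 and P4hb were each lower in 3 libraries (quiescent, day 4 and day 14), with P4ha2 at 6.38-fold (2.48 to 23.5), 2.26-fold (1.70 to 3.08) and 2.99-fold (2.12 to 4.37). Loxl2, Plod3 and P4ha1 differed 2-fold in no library, Loxl3 was lower on day 4 by 2.30-fold (1.78 to 3.04), and Plod1 was higher on day 1 by 2.09-fold (1.52 to 2.81), a call lost with thinned cells, TMM or DESeq2 scaling. The quiescent Plod2 and P4hb calls were lost in thinned cells, the day 1 Lox call at 5% mitochondrial UMIs or against other cells without any marker UMI, and the day 4 Loxl3, P4ha2 and P4hb and day 14 P4hb calls each under at least 1 other setting. TMM factors shifted all mural to other cell log2 ratios by -0.37 to -0.71 and DESeq2 factors by -0.16 to -0.29. Of the 10 genes, 5 were lower in quiescent mural cells, where 37.8% of features differed (23.7% higher, 14.1% lower). On day 1, 2 were lower and 1 higher, where 24.5% differed (17.8% higher, 6.74% lower). On day 2 none differed, where 11.7% did (8.2% higher, 3.46% lower). On day 4, 6 were lower, where 23.9% differed (15.3% higher, 8.65% lower), and on day 14, 5 were lower, where 29.1% differed (17.9% higher, 11.1% lower).

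The day 2 mural class also had the largest sum of progenitor RNA among the mural classes. The 5 progenitor genes Pdgfra, Dcn, Ly6a, Cd34 and Lum were all detected in mural cells and summed to 6841 CPM on day 2, against 2716 to 4271 CPM in mural cells of the other libraries and 10001 to 29828 CPM in other cells. In the 23 day 2 mural cells without Pdgfra UMIs, a selection made after the data were seen, Loxl1 had 1 UMI and was 31.2-fold (5.60 to 1233) lower than in other cells, Loxl3 was 2.68-fold (1.36 to 6.21) lower and P4hb 2.68-fold (1.73 to 4.39) lower. Lox in those 23 cells was at 162 CPM, 1.02 times the level of other cells. Leaving out cells with Pdgfra UMIs favours shallow cells, and the part of depth or of progenitor RNA in these levels was not tested. Over time in mural cells, Plod3 rose 5.33-fold (1.94 to 20.4) on day 1, to 108 CPM, against 20.3 CPM and 4 UMIs in quiescent mural cells. Because the quiescent mural class held 4 UMIs or fewer of Lox, Loxl1, Plod2, Plod3 and P4ha2, the ratios to it are loose, and thinning to 2500 UMIs left 13 of its 112 cells. Only 8 of the 10 genes had the 20 UMIs needed on days 1, 4 and 14, and 9 on day 2. Any gene with 4 or fewer quiescent UMIs met this minimum only through the later library and could not be called lower. The filter thus favoured higher calls, and the counts that follow do not show a direction of the group. Of the genes with enough UMIs, 4 of 8 were higher on day 1 than in quiescent mural cells and none lower, where 29% of features differed (13.6% higher, 15.5% lower). On day 2, 6 of 9 were higher, where 35.1% differed (17% higher, 18.1% lower), on day 4, 6 of 8, where 26.1% differed (13.6% higher, 12.5% lower), and on day 14, 1 of 8 (Loxl1), where 13.7% differed (8.77% higher, 4.91% lower). Thinned cells are no check of these calls: of the 13 quiescent cells left, 0 held a Plod3 UMI and 1 a Loxl3 UMI, and the calls that passed there (Plod3 on days 1 and 4, Loxl3 on day 4) rest on those counts.

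Within each library the other cells were also ordered by the share of Col1a1 and Col3a1 in their UMIs and cut into 4 equal bins. Ratios of the top to the bottom bin were not computed over all features, so they have no background. For Lox this ratio was above 1 in each library. It was 2.98 (1.87 to 4.90) in the quiescent library, 2.55 (2.29 to 2.83) on day 1 and 1.75 (1.61 to 1.91) on day 2. On day 4 it was 4.22 (3.76 to 4.75) and on day 14 3.03 (2.16 to 4.32). Loxl2 had ratios of 1.91, 2.29, 2.45, 1.89 and 1.96. Plod2 stood out on day 4, with 117 CPM in the top and 25.7 CPM in the bottom bin, a ratio of 4.53 (3.77 to 5.48), against ratios of 1.13 to 2.27 in the other libraries. Plod3 had ratios on both sides of 1, between 0.758 and 1.64. Loxl3 changed sides: on day 2 it was 101 CPM in the top and 247 CPM in the bottom bin, a ratio of 0.408 (0.373 to 0.447), and on day 4 it was 232 CPM in the top and 82.1 CPM in the bottom bin, a ratio of 2.83 (2.55 to 3.15). Depth moved with the bins, from a median of 8662 UMIs in the top to 14696.5 UMIs in the bottom bin on day 2 and from 8626.5 UMIs in the top to 4721 UMIs in the bottom bin on day 4, and its part in these ratios was not tested.

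**Figure D5:**
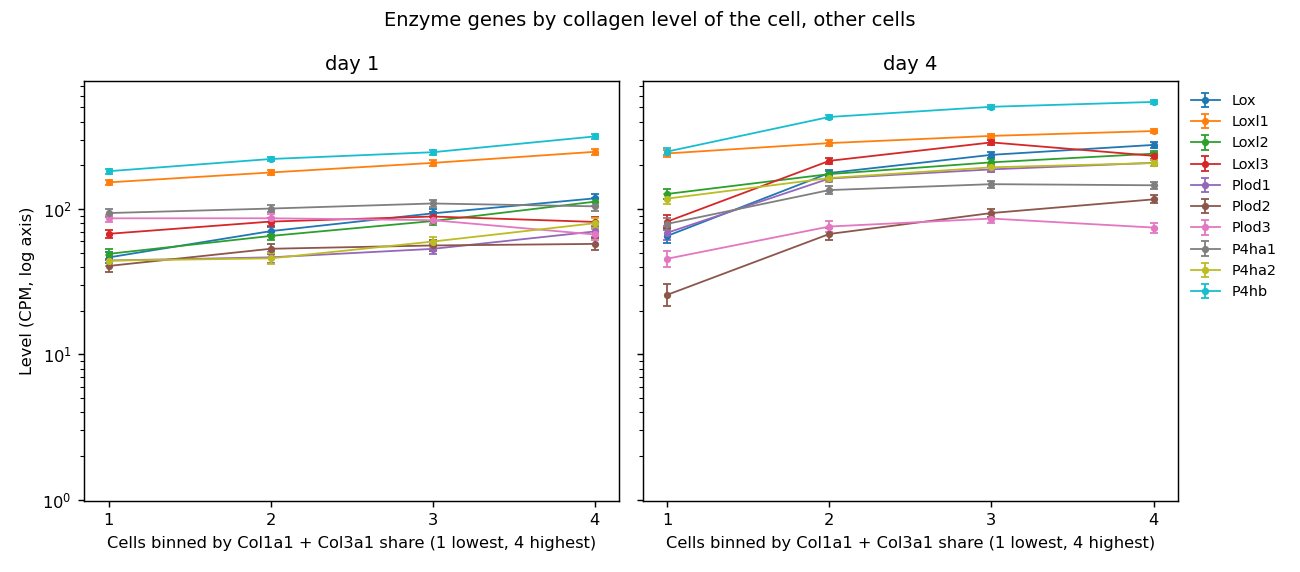
Level of the 10 enzyme genes (CPM, log axis, 95% counting intervals) in other cells of day 1 and day 4, binned by the share of Col1a1 and Col3a1 in their UMIs (1 lowest, 4 highest). On day 4 Plod2 goes up to 117 CPM in the top bin, against 25.7 CPM in the bottom bin.

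The day 4 cells rich in Postn and Cthrc1, markers of matrix-building fibroblasts, carried more Lox, Loxl3, Plod2 and P4hb. The 2307 day 4 cells with at least 5 UMIs of both genes together had 251 CPM of Lox, against 49.7 CPM in the 617 cells with none, a ratio of 5.05 (4.27 to 6.03). Loxl3 was 4.27-fold (3.67 to 4.99), Plod2 3.79-fold (2.998 to 4.86) and P4hb 2.05-fold (1.90 to 2.21) higher in the Postn and Cthrc1 cells. Thus 4 of 10 genes were higher and none lower, where 11% of 5606 features differed (5.64% higher, 5.33% lower). P4ha2 had the smallest ratio, 1.25 (1.13 to 1.38). The Postn and Cthrc1 cells were also deeper, with a median of 8957 UMIs, against 4044 UMIs in the cells with none, and the rule on UMIs favours deep cells.

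Other genes of the pathway, from lists chosen with earlier results known, were read in the other cells in the same way. On day 1, 10 of 11 fibrillar and associated collagen genes fell and none rose (median log2 ratio -2.11), led by Col14a1 at 6.07-fold (5.74 to 6.41) lower. Of 13 genes for collagen trimming and lysyl oxidase partners, 9 fell (median -1.82), among them Fbln5, a fibulin that binds Loxl1, at 37.3 CPM on day 1, against 235 CPM in the quiescent library, and Adamts2, which removes the amino propeptide of procollagen, at 37.9 CPM on day 1, against 178 CPM in the quiescent library. Of 16 collagen chaperones and modifiers, 6 fell and none rose (median -0.42), with Fkbp7 at 3.70-fold (3.50 to 3.92) and P3h3, a prolyl 3-hydroxylase family member, at 2.92-fold (2.51 to 3.39) lower. Hypoxia targets outside the enzymes were mixed, 4 of 11 higher and 2 lower (median 0.77), with Ldha 5.67-fold (5.42 to 5.94) higher and Vegfa 5.12-fold (4.22 to 6.20) lower. On day 4, 5 of 17 chaperones and modifiers rose and 1 fell (median 0.52). P4ha3, a further prolyl 4-hydroxylase alpha subunit, was at 21.5 CPM on day 4, against 1.23 CPM (9 UMIs) in the quiescent library, 17.5-fold (9.15 to 38.4) higher, and Fkbp10, which works with Plod2, was at 325 CPM on day 4, against 103 CPM in the quiescent library, 3.15-fold (2.93 to 3.40) higher. Serpinh1, the collagen chaperone HSP47, rose 2.16-fold (2.13 to 2.20). Over all features, 15.5% were higher and 24.3% lower on day 1, with a median of -0.15, and 6.34% were higher and 9.92% lower on day 4, with a median of 0.02.

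Each gene's course was last compared with that of 6947 other genes over the 15 pools of library and class, as Pearson's r of log2(CPM + 10). These pools share libraries and depth, so the r values describe likeness and carry no test. Lox was most like Plpp1 (0.95), Tmem173 (0.95) and Dok1 (0.94), Loxl3 most like Ssr1 (0.96), Fkbp10 (0.96) and Copb2 (0.95), and P4hb most like Sar1a (0.96), Cdr2l (0.95) and Sra1 (0.94). Plod3 was most like Uxt (0.94), Hspa5 (0.94) and Tubb5 (0.93), P4ha1 most like Piezo1 (0.94), Fbn2 (0.93) and Rasa1 (0.91), and P4ha2 most like Serpinb1a (0.94), Mnda (0.93) and Plac8 (0.92). Loxl1 was most like Fbln2 (0.94), Lsp1 (0.94) and Fstl1 (0.93), and Loxl2 most like Kdm5b (0.95), P3h3 (0.92) and Pcmtd1 (0.90). The first match of Plod1 was Glmp (0.91) and that of Plod2 was Dab2 (0.92). Within the group the closest pairs were P4hb with Loxl1 (0.85), P4hb with Loxl3 (0.83) and Loxl3 with Lox (0.81). The least alike were Plod3 with Loxl2 (-0.55) and P4ha2 with P4ha1 (-0.25). With Col3a1, r was 0.71 for Loxl1, 0.02 for Lox and -0.15 for Plod3, and with Col1a1 it was 0.77 for P4ha1, 0.57 for Lox and 0.03 for P4ha2.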

How the data were processed

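UMI counts for each gene and cell barcode are the values the authors deposited for 5 libraries, made with the 10x Chromium 3′ v2 kit. They were whole numbers, and the totals were 8043771 UMIs for quiescent muscle, then 44552329, 32843041, 32283940 and 17612150 UMIs for days 1, 2, 4 and 14. Per the submitters' processing notes, the build was mm10 and Cell Ranger was used. Its version, its rule for calling cells and the strand setting: not given in the sources used here.

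Barcodes with at least 500 genes and at most 10% mitochondrial UMIs were kept, 17085 of 17213. Between 8 and 26 barcodes were shared by any pair of libraries, at most 0.982% of the smaller. Doublets were not removed, and 6 cells that met both class rules were left out. Raw UMIs were summed per library and class and scaled to CPM. Levels have exact Poisson, shares Clopper-Pearson and ratios exact conditional binomial 95% intervals, all of which cover counting error only. Log2 ratios carry 1 CPM in each group. No test was made, since each group is 1 library. The call rule was run on simulated counts that held counting error only, so that run cannot show how variation between libraries affects the calls. edgeR 4.0.16 (TMM) and DESeq2 1.42.0 (R 4.3.3) gave alternative scaling factors only. Python 3.11.15, numpy 2.4.6, scipy 1.17.1 and pandas 2.3.3 were used. The alternatives were class limits of 3 and 10 UMIs, other cells without any marker UMI, the tenocyte rule without Fmod, no barcode filter, at most 5% mitochondrial UMIs, leaving out the deepest 5% of cells, both scalings, the mean of cell CPM, cells thinned to 2500 UMIs, a 1.5-fold limit and a minimum of 5 CPM.

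The genes, lists and rules were chosen with earlier results of these data known. All 10 enzymes and Col1a1 and Col3a1 are named, at most 4 genes of largest log2 ratio from each list, and 3 most alike genes for each enzyme. Gene overlaps are from GENCODE M21 and promoters from RefSeq.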

Additional observations from a re-analysis of the deposited data

Results flagged for a closer look

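P4ha2 on day 1 against quiescent passed the 2-fold rule in opposite directions in mural cells and in other cells. Its log2 ratio was 1.58 in mural cells, with 26 UMIs on day 1 and 4 UMIs in the quiescent library, and -1.22 in other cells, with 2351 UMIs on day 1 and 948 UMIs in the quiescent library. The difference between both ratios was not tested, since each group is 1 library. The mural ratio of 3.08 (1.07 to 12.1) fell short of the rule when cells were thinned to 2500 UMIs, which left 13 quiescent mural cells, and the ratio in other cells with TMM scaling.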

How the results depend on the processing

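No paired analysis was possible because each group is 1 library. Of 129 recomputed counts of enzyme genes past 2-fold or highest on day 4, 109 stayed within 1.5 times the count reported. For day 4 against quiescent, 2 became 6 at 1.5-fold, and for day 14 against day 4, 3 became 5 at 1.5-fold. For day 2 against day 1, 4 became 1 with the mean of cell CPM or thinned cells, 0 with TMM and 2 with DESeq2 factors. For day 4 against day 2, 2 became 1 with a class limit of 3 UMIs, other cells without any marker UMI, without the deepest 5% of cells, the mean of cell CPM, thinned cells or DESeq2 factors, and 0 with TMM. For tenocytes against other cells over the 5 libraries, 1 (Lox) became 2 with a class limit of 10 UMIs, without Fmod, with the mean of cell CPM or TMM, 3 in thinned cells and 4 at 1.5-fold. For mural cells, 5 became 3 with a class limit of 3 UMIs.

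Of 2840 recomputed log2 ratios, 2517 stayed inside the counting interval of the reported one, 317 moved outside it, and 6 ratios past 2-fold turned sign, all of them in mural cells against quiescent. Of the ratios short of 2-fold, the sign also changed in recomputed values that are counted above, 58 in comparisons with mural cells, 27 with tenocytes and 20 in other cells alone. In thinned cells, of which 13 were quiescent, Loxl1 was -1.08 on day 1, -0.027 on day 4 and -0.50 on day 14, and P4hb was -0.048 on day 2 and -0.50 on day 4. Without Pdgfra cells, a setting chosen after seeing the data, Loxl1 on day 2 was -0.85. The cause was not tested. At day 1 in other cells the Loxl3 and Plod3 calls were lost in thinned cells and with the mean of cell CPM, the Plod1 call with TMM and DESeq2, and the P4ha2 call with TMM. Depth limits the mural class most, whose quiescent cells had 1427 UMIs at the median.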

Other observations

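Tenocytes also differed from other cells in genes that act beside these enzymes. In the quiescent library 5 of 19 collagen chaperones and modifiers were higher in tenocytes, among them the prolyl 3-hydroxylase P3h2, its relative P3h4 and Crtap. Colgalt2, a collagen galactosyltransferase, was the 1 lower gene. The median log2 ratio was 0.65, against -0.05 over all features, of which 8.43% were higher and 12.8% lower. On day 14, 2 of 17 were higher (Tmem38b and Slc39a13), with a median of 0.58, against 0.04 over all features, of which 7.9% were higher, so that this count is near the background. On days 2 and 4 none of 16 was higher or lower. Col11a1, which is also among the tenocyte markers, and Col12a1 were higher in tenocytes in all 5 libraries, while Col14a1 was lower in all 5. Whether these differences are linked to those of the enzymes was not tested.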
